A study of Mus musculus with 17 samples.

Results

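The genes described here are 9 genes of cartilage and of mature scar matrix, *Matn2*, *Matn4*, *C1qtnf3*, *Comp*, *Cilp*, *Cilp2*, *Chad*, *Acan* and *Clec3b*, out of 31053 genes counted in cardiac fibroblasts (CFs) of the infarcted mouse heart. They were taken by symbol, and all 9 passed the filter of at least 10 counts in 3 libraries, which 14030 genes passed in all. A gene is called where its adjusted p is under 0.05. *Matn4* and *C1qtnf3* were selected on their 6 dpi values in these same libraries, so that their levels are given as a description without a test, and the question asked was whether the other 7 genes also rose from day 1 to day 6 after infarction (days post-infarction, dpi). The libraries were 17 bulk MARS-seq libraries, which count the 3′ ends of poly-A transcripts, in groups of 3 except for the 4 libraries of 3 dpi and the single library of 5 dpi. Every group was made from C57BL/6 Collagen1a1-GFP+ mice aged 8 to 10 weeks. All had a myocardial infarction from permanent ligation of the left anterior descending coronary artery. The sample titles tell the groups apart by the day after infarction alone. Library names had another form at 3 dpi than on all other days, for a reason not given. Cells were sorted as GFP+/CD31-/CD45-. GFP was driven by the *Col1a1* promoter, so that the gate took cells by the activity of a collagen gene and left out fibroblasts that do not use it. No uninjured heart was analysed here, and changes are therefore relative to 1 dpi or to the preceding day.

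Cartilage owes its stiffness to a gel of aggrecan, a large proteoglycan that binds hyaluronan, held in a network of collagen fibrils. Bridging proteins such as the matrilins, COMP and chondroadherin link the fibrils, the proteoglycans and the cells. After infarction, fibroblasts first divide, then become contractile matrix-producing myofibroblasts, and in the mature scar some of them turn into matrifibrocytes, a state known for expressing genes of cartilage and tendon. The CILP proteins are best known from the intermediate layer of articular cartilage, and CILP also binds TGF-β and restrains its signalling. *Clec3b* encodes tetranectin, a plasminogen-binding lectin that is also a marker of resting adventitial fibroblasts.

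Total counts ranged from 8021815 to 22029938 per library, with a median of 14123952. Levels are given as CPM, which relates each count to its library's total after TMM scaling, and 3 counts, the floor for a gene with no count, corresponded to 0.124 to 0.38 CPM. The floor allows for counting error alone, because copies made by PCR are not separate molecules. The 8 fibroblast markers were above the floor in every library and summed to at least 12403.9 CPM, whereas *Ptprc*, which encodes the CD45 of the gate, had at most 37 counts and *Pecam1*, which encodes CD31, at most 241. The 10 leukocyte markers summed to 37.7 to 166 CPM at 3 dpi and 52.6 CPM at 5 dpi, against 15.1 to 27.4 CPM at 6 dpi. For 8 endothelial markers the sums were 19.2 to 84.2 CPM at 3 dpi and 30.7 to 43.1 CPM at 6 dpi. In 1 dpi replicate 1, which had the lowest total count, 8 of the 9 genes were at their lowest level of that day. *Xist* counts exceeded those of 4 Y-linked genes in every 4 and 6 dpi library and in 1 dpi replicate 1, and the reverse held in the other 1 dpi libraries and at 2, 3 and 5 dpi. This sex-linked pattern tells only which count was larger. Replicate 1 of 1 dpi had 84 Y-linked counts beside 1670 of *Xist*, and replicate 2 had 461 of *Xist* beside 1455. The 6 dpi libraries had 1 to 10 Y-linked counts. In bulk libraries, fewer cells that express a gene and less RNA per cell cannot be told apart.

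A higher level at 6 dpi than on any earlier day was shared by several of the 9 genes but not by all of them. *Matn4*, *C1qtnf3*, *Comp*, *Acan* and *Cilp2* were higher in every 6 dpi library than in all 14 earlier libraries. Of these, *Comp*, *Acan* and *Cilp2* belong to the 7 genes other than the selected pair, and 3 of 7 compares with 2.63% of all genes tested that have the same order of libraries. These 7 were also chosen with results of these libraries known, so the count is a description and not a test of the list. *Cilp* was already high at 2 dpi. *Chad* reached its highest value in a 1 dpi library, and *Clec3b* had 1 of its 3 libraries of 6 dpi within its earlier range. *Matn2* had its highest mean at 3 dpi, so that the description of these genes as late did not hold for it.

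**Figure D1:**
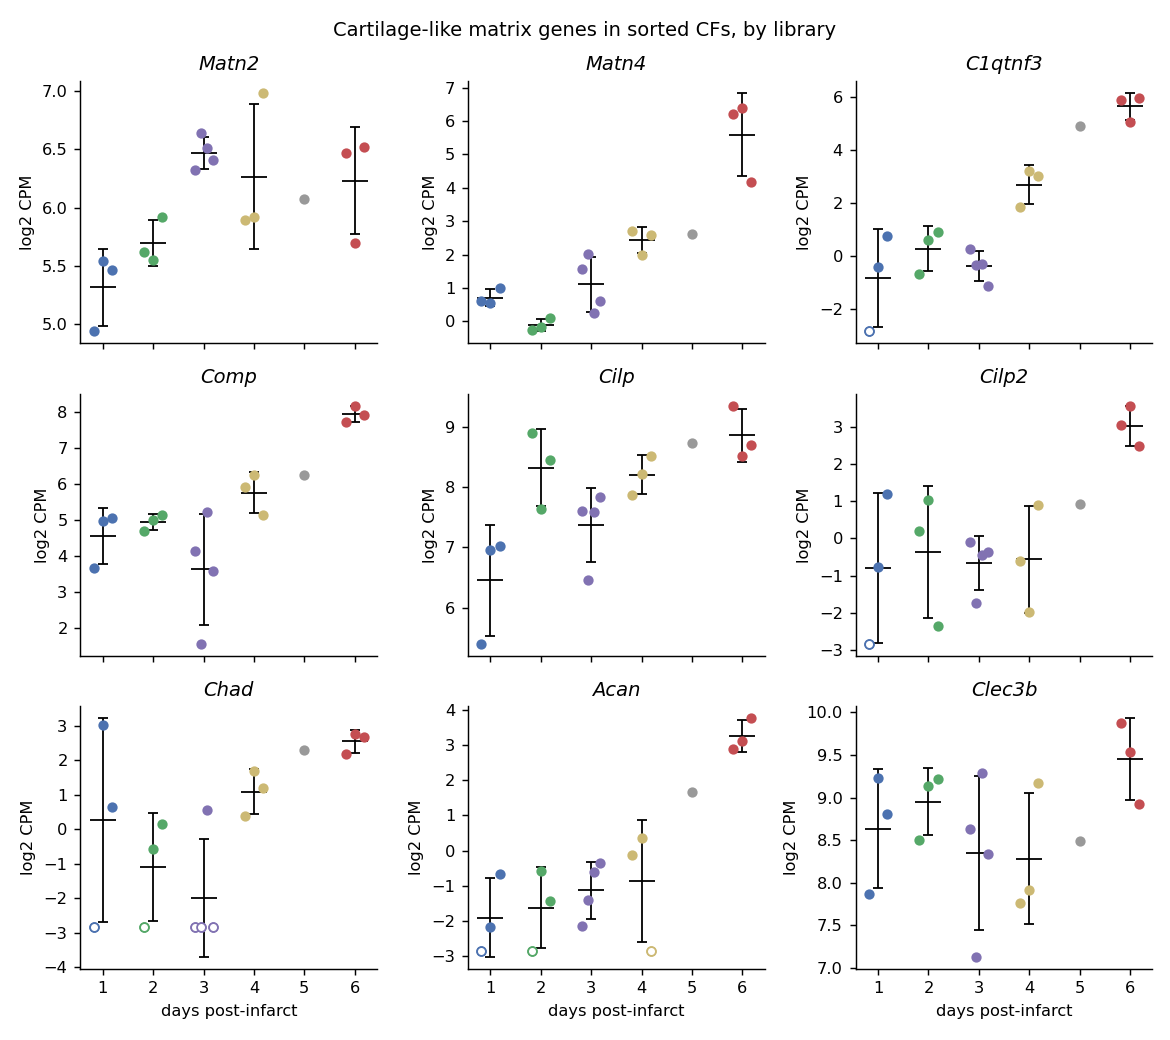
Levels of the 9 genes by day, as log2 CPM with a prior count of 2 on the vertical axis and days post-infarct on the horizontal axis. Points are libraries, open points are libraries with no count of the gene, and bars give the mean and SD (n = 3, or 4 at 3 dpi); the 5 dpi library stands alone, each panel has its own vertical scale, and the 6 dpi points lie above all others for *Matn4*, *C1qtnf3*, *Comp*, *Cilp2* and *Acan*.

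*Matn4* encodes matrilin-4, an adaptor protein of the matrix. The gene is on the minus strand of chromosome 2 (GRCm38, chr2:164389393-164405160). It was measured at 1.39, 1.32 and 1.86 CPM in the 1 dpi libraries, 0.696, 0.744 and 0.924 at 2 dpi, 2.84, 3.94, 1.04 and 1.38 at 3 dpi, 6.43, 3.81 and 5.88 at 4 dpi and 6.04 at 5 dpi. At 6 dpi its libraries had 74.3, 84.5 and 17.8 CPM, from 1150, 992 and 231 counts. The lowest 6 dpi library, replicate 3, was still 2.76 times the highest earlier one, and the libraries of 6 dpi spread over a 4.76-fold range, the widest of the 9 genes on that day. The mean log2 CPM was 5.59 ± 1.24 (SD, n = 3) at 6 dpi against 0.72 ± 0.24 (n = 3) at 1 dpi, and the ordering from 3 to 5 dpi was not resolved, since those libraries overlapped from one day to the next. Exons of *Matn4* share bases with *Rbpjl* on the other strand, which had at most 23 counts.

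*C1qtnf3* encodes a secreted protein of the C1q and TNF related family, known from the growth plate of cartilage. The gene is on the plus strand of chromosome 15 (chr15:10952332-10980150). Its level was 0, 0.618 and 1.56 CPM at 1 dpi, where the library with no count allows up to 0.38 CPM, 0.482, 1.38 and 1.73 CPM at 2 dpi, and 1.06, 0.644, 0.669 and 0.319 CPM at 3 dpi. It then stood at 3.44, 9.18 and 7.91 CPM at 4 dpi, 29.7 CPM at 5 dpi and 59.7, 33.4 and 62.4 CPM at 6 dpi. The values were higher on each day from 4 dpi onwards, with no overlap between 3 and 4 dpi, 4 and 5 dpi or 5 and 6 dpi, whereas the 5 dpi level of *Matn4* lay within its range of 4 dpi. The step from the 5 dpi library to the lowest 6 dpi library was small, 1.13-fold, and the 5 dpi value is from 1 library. The mean log2 CPM was 5.65 ± 0.50 (SD, n = 3) at 6 dpi and 2.69 ± 0.74 (n = 3) at 4 dpi.

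*Comp* encodes cartilage oligomeric matrix protein, a thrombospondin that binds fibrillar collagens and is abundant in cartilage and tendon. It lies on the plus strand of chromosome 8 (chr8:70373558-70382066). The libraries had 12.7, 31.2 and 33.5 CPM at 1 dpi, 26.0, 32.1 and 35.2 at 2 dpi, 17.6, 2.82, 37.3 and 12 at 3 dpi, 60.2, 75.8 and 35.0 at 4 dpi, 76.1 at 5 dpi and 212, 291 and 242 at 6 dpi. The 6 dpi libraries formed a tight group at least 2.79 times above every earlier library, while the 3 dpi libraries scattered widely, with replicate 2 far below the rest. From 1 to 6 dpi *Comp* rose 9.56-fold (95% interval 4.16 to 22), a log2 fold change of 3.26 with a standard error (SE) of 0.57 and an adjusted p of 0.0012 (edgeR quasi-likelihood test, adjusted by Benjamini and Hochberg over all genes). It was called in each of the 13 alternatives of this comparison.

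*Acan* encodes aggrecan and lies on the plus strand of chromosome 7 (chr7:79053483-79115099). It was close to the floor until 4 dpi, with 0, 2 and 10 counts at 1 dpi, 0, 10 and 4 at 2 dpi, 1, 3, 7 and 6 at 3 dpi and 12, 20 and 0 at 4 dpi. The 5 dpi library had 29 counts, or 3.02 CPM, and the 6 dpi libraries 112, 101 and 174 counts, or 7.23, 8.61 and 13.4 CPM. No library before 5 dpi exceeded 1.15 CPM. The fitted change from 1 to 6 dpi was 43.6-fold, with a wide 95% interval of 8.37 to 227 and 12 counts in all at 1 dpi (log2 fold change 5.45, SE 1.14, adjusted p = 0.0043 by edgeR). Without 1 dpi replicate 3, which held 10 of the 12 counts, the log2 fold change was 7.18 (adjusted p = 0.0067 by edgeR). Among the 6 dpi libraries, replicate 3 had the highest level of *Acan* and the lowest of *Matn4*, so the libraries of that day were not ordered alike for these genes.

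*Cilp* and *Cilp2* are paralogues, and their libraries were ordered differently over the days. *Cilp2* lies on the minus strand of chromosome 8 (chr8:69880369-69887687), 485.9 kb from *Comp*. It had 0, 11 and 44 counts at 1 dpi, 19, 36 and 1 at 2 dpi, 9, 2, 8 and 6 at 3 dpi, 8, 2 and 16 at 4 dpi, 17 at 5 dpi and 126, 138 and 71 at 6 dpi. In CPM, no library before 6 dpi exceeded 2.15, whereas the 6 dpi libraries had 8.14, 11.8 and 5.46. The libraries of adjacent days in the order of the means overlapped from 5 dpi downwards. *Cilp2* did not pass the threshold from 1 to 6 dpi (log2 fold change 3.19, SE 1.06, adjusted p = 0.056 by edgeR), and DESeq2, run as an alternative, gave 3.28 with an adjusted p of 0.0099. Leaving out 1 dpi replicate 3, the library with 44 counts, gave 4.86 with an adjusted p of 0.03 by edgeR. Leaving out 6 dpi replicate 3 gave 3.43 with an adjusted p of 0.047 by edgeR. *Cilp2* was not called when 1 dpi replicate 1 or 2 or 6 dpi replicate 1 or 2 was left out. The log2 fold changes were then 2.68, 2.84, 3.23 and 2.89, with adjusted p-values by edgeR of 0.15, 0.17, 0.12 and 0.17 in that order.

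*Cilp* is on the plus strand of chromosome 9 (chr9:65265180-65280605). Its level was 41.7, 124 and 129 CPM at 1 dpi and 477, 199 and 351 CPM at 2 dpi. It was 195, 88.0, 193 and 230 CPM at 3 dpi, 235, 297 and 370 CPM at 4 dpi, 425 CPM at 5 dpi and 658, 366 and 417 CPM at 6 dpi. The 2 dpi libraries overlapped those of 3, 4 and 6 dpi, and neither the lower mean at 3 dpi than at 2 dpi nor the higher one at 4 dpi passed the threshold (adjusted p = 0.18 and 0.30 by edgeR). From 1 to 6 dpi *Cilp* rose 4.88-fold (95% interval 2.62 to 9.08; log2 fold change 2.29, SE 0.43, adjusted p = 0.0020 by edgeR) and was called in each of 13 alternatives. Much of that difference was present at 2 dpi, where the log2 fold change against 1 dpi was 1.80 (SE 0.42). This earlier step did not pass the threshold in edgeR (adjusted p = 0.14) but did in DESeq2 (adjusted p = 0.0034).

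*Matn2*, which encodes matrilin-2, a matrilin of fibrillar connective tissue and nerve sheaths, is on the plus strand of chromosome 15 (chr15:34306677-34436273), 23.3 Mb from *C1qtnf3*. Its libraries ranged from 30.5 to 46.3 CPM at 1 dpi, 46.7 to 60.3 at 2 dpi and 79.6 to 99.7 at 3 dpi. They ranged from 59.1 to 126 CPM at 4 dpi and from 51.9 to 91.8 at 6 dpi, with 66.9 in the 5 dpi library. The libraries of 1, 2 and 3 dpi did not overlap and lay higher on each day, although neither step passed the threshold, and the later days lay within or below the range set by 3 and 4 dpi. *Matn2* passed the threshold from 1 to 6 dpi (1.91-fold, log2 fold change 0.94, SE 0.30, adjusted p = 0.045 by edgeR). This call was lost when 1 dpi replicate 1, 2 or 3 or 6 dpi replicate 1 or 3 was left out, with log2 fold changes of 0.77, 1.04, 1.00, 0.83 and 0.80 and adjusted p-values by edgeR of 0.19, 0.08, 0.088, 0.15 and 0.092 in that order. The overlapping antisense gene *9430069I07Rik* had at most 1 count.

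*Chad* encodes chondroadherin, a leucine-rich repeat protein through which chondrocytes attach to collagen, and lies on the plus strand of chromosome 11 (chr11:94565047-94569127). It had 0, 193 and 29 counts at 1 dpi, 0, 10 and 17 at 2 dpi, 0, 0, 18 and 0 at 3 dpi, 18, 54 and 20 at 4 dpi, 46 at 5 dpi and 68, 79 and 82 at 6 dpi. The gene was detected in every library from 4 dpi, at 1.17 CPM or more, and was without a count in 5 of the 10 libraries before. Replicate 2 of 1 dpi had 7.96 CPM, above all 6 dpi libraries (4.39, 6.73 and 6.30 CPM). The log2 fold change from 1 to 6 dpi was 0.85 (SE 1.19, adjusted p = 0.69 by edgeR), and its 95% interval, from -1.64 to 3.34, leaves both directions possible. Without that library the fit gave a log2 fold change of 2.87 with an adjusted p of 0.25 by edgeR.

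*Clec3b* is on the plus strand of chromosome 9 (chr9:123150946-123157432). Its level was 234, 598 and 449 CPM at 1 dpi, 361, 562 and 595 at 2 dpi, 395, 140, 625 and 324 at 3 dpi, 216, 241 and 574 at 4 dpi, 361 at 5 dpi and 944, 744 and 488 at 6 dpi. Adjacent days in the order of the means overlapped throughout. Although the 6 dpi mean was the highest, with a log2 CPM of 9.45 ± 0.48 (SD, n = 3) against 8.64 ± 0.70 (n = 3) at 1 dpi, the log2 fold change of 0.76 (SE 0.46) did not pass the threshold (adjusted p = 0.30 by edgeR).

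Over the 7 genes tested from 1 to 6 dpi, 4 were called higher (*Acan*, *Comp*, *Cilp* and *Matn2*) against 6.91% of all genes. None was called lower by edgeR or by DESeq2, against 5.21% of all genes. At an unadjusted p under 0.05, 5 of the 7 differed, the 4 and *Cilp2*, each of them higher, against 27.6% of all genes in either direction. The median log2 fold change of the 7 was 2.29 and that of all 14030 genes 0.03. The 7 were chosen with results of these libraries known, so the count describes them and is not a test of the list. When 1 dpi was represented only by its replicate 1, the single library with the sex-linked pattern of the 6 dpi libraries, *Comp* and *Cilp* were called, with log2 fold changes of 4.28 and 3.52 and adjusted p-values of 0.025 and 0.0091 by edgeR. *Acan* and *Matn2* were then not called, with adjusted p-values of 0.053 and 0.11 by edgeR, and the lone library was assumed to vary like the other groups. The difference of *Matn2* was not smaller there, with a log2 fold change of 1.34 against 0.94 with all 1 dpi libraries. *Acan* had no count in the lone library, which allows up to 0.38 CPM, against at least 7.23 CPM in the 6 dpi libraries. No fold is given, and its difference there could be larger or smaller than with all 1 dpi libraries.

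**Figure D2:**
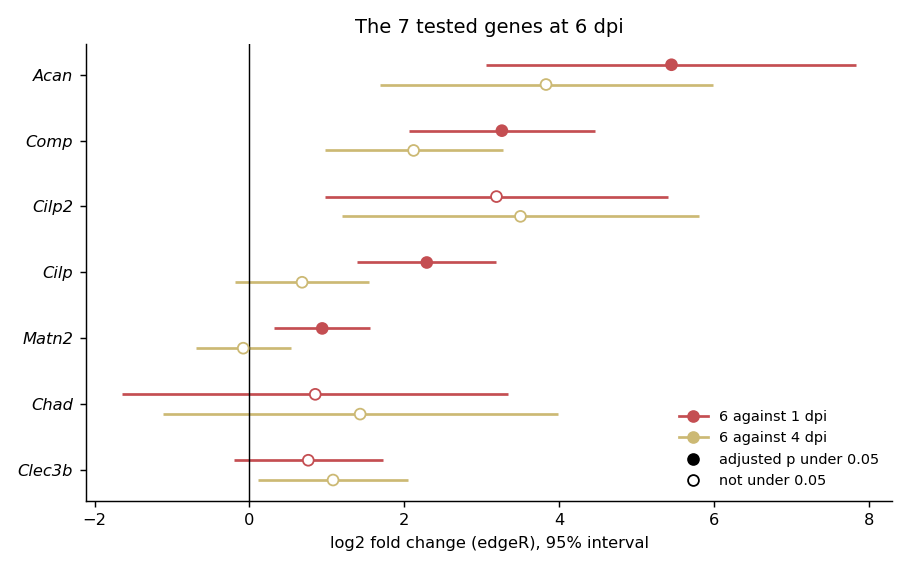
Log2 fold changes of the 7 tested genes at 6 dpi against 1 dpi and against 4 dpi, from edgeR, with 95% intervals on the horizontal axis (3 libraries a day). Filled points have an adjusted p under 0.05: *Acan*, *Comp*, *Cilp* and *Matn2* against 1 dpi, and no gene against 4 dpi, where *Acan*, *Comp* and *Cilp2* have changes of 3.83, 2.12 and 3.50.

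The comparison of 6 with 4 dpi lies within libraries of one sex-linked pattern. The largest differences there were those of *Acan*, 14.2-fold (95% interval 3.20 to 63.3, adjusted p = 0.079 by edgeR), *Cilp2*, 11.3-fold (2.30 to 55.6, adjusted p = 0.11) and *Comp*, 4.35-fold (1.97 to 9.61, adjusted p = 0.066). The log2 fold change of *Cilp2* went from 3.50 to 4.73 without 4 dpi replicate 3, and that of *Acan* from 3.83 to 4.49 without 4 dpi replicate 2, neither of them called. None of the 7 genes passed the threshold, against 0.513% of all genes, and 4 of the 7 had an unadjusted p under 0.05, as did 19.9% of all genes. DESeq2 called *Acan*, *Cilp2* and *Comp*, with adjusted p-values of 0.0028, 0.019 and 0.027. *Comp* was also called by edgeR without 6 dpi replicate 3 (log2 fold change 2.14, adjusted p = 0.032), where 1402 rather than 72 genes were called over the whole table. *Clec3b* had a log2 fold change of 1.08 (SE 0.47, adjusted p = 0.21 by edgeR), and 1.68 without 4 dpi replicate 3 (adjusted p = 0.082). *Cilp* (0.68) and *Matn2* (-0.08) were within 1 unit of no change. For the pair selected on 6 dpi, the 6 dpi mean log2 CPM was 3.17 above that of 4 dpi for *Matn4* and 2.96 for *C1qtnf3*.

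The steps between earlier days held no call among the 7 genes. From 3 to 4 dpi, where 2.71% of all genes were called, *Comp* had the lowest adjusted p, with a log2 fold change of 1.71 (SE 0.50, adjusted p = 0.073 by edgeR). It was called without 3 dpi replicate 2, the library with 2.82 CPM (1.35, adjusted p = 0.045), and without 3 dpi replicate 3 (2.40, adjusted p = 0.014), both by edgeR. In this step 1 of the 7 genes had an unadjusted p under 0.05, as did 18.2% of all genes, and DESeq2 called none of the 7. The day and the sex-linked pattern cannot be told apart there, since all 3 dpi libraries had one pattern and all 4 dpi libraries the other. The steps to and from 3 dpi also coincide with the other form of library names on that day. From 2 to 3 dpi, where 2.94% of all genes were called, *Cilp* (log2 fold change -0.96, SE 0.38) and *Matn2* (0.77, SE 0.28) had an unadjusted p under 0.05, with adjusted p-values of 0.18 and 0.13 by edgeR and no call by DESeq2, and 18.3% of all genes were under that unadjusted p. From 1 to 2 dpi, 0.178% of all genes were called, 1 of the 7 and 7.58% of all genes had an unadjusted p under 0.05, and the 1 was *Cilp*, the only one DESeq2 called.

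The 9 genes also differed in which of the others they followed over the 17 libraries. Pearson's r of log2 CPM was 0.84 between *C1qtnf3* and *Comp*, 0.83 between *C1qtnf3* and both *Acan* and *Matn4*, and 0.81 between *Comp* and *Chad*. *Matn2* had 0.02 with *Comp* and no value above 0.43, and *Clec3b* was at most 0.63 with any of the others. These correlations are a description, over libraries that share days and the same sorting gate. Which of them shared an amplification pool is not given.

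**Figure D3:**
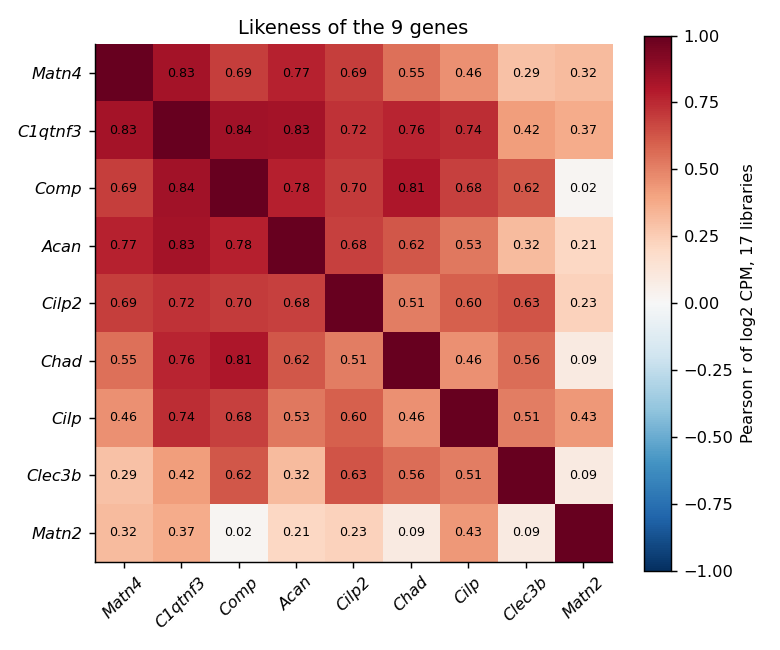
Pearson's r of log2 CPM over 17 libraries for each pair of the 9 genes, as color and number. *Matn4*, *C1qtnf3*, *Comp* and *Acan* have r from 0.69 to 0.84 with one another. With these genes *Cilp2* has r from 0.68 to 0.72 and *Chad* from 0.55 to 0.81, so the block has no sharp edge. *Matn2*, in the last row, has r between 0.02 and 0.43.

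Among all genes tested, those with the highest r to *C1qtnf3* over the 17 libraries were *Col8a2* (0.97), *Rflnb* (0.95) and *Fmod* (0.93). *Col8a2* encodes a network-forming collagen and *Fmod* fibromodulin, a small leucine-rich proteoglycan of cartilage and tendon. For *Matn4* they were *Plxnb1* (0.94), *Mdk* (0.93), which encodes the growth factor midkine, and *Cd248* (0.93), a fibroblast surface protein. *Comp* was followed most closely by *Ptprb* (0.94), *Myl12b* (0.93) and *Dkk3* (0.91), and *Cilp* by *1700056E22Rik* (0.87), *Ing4* (0.87) and *1600014C10Rik* (0.85). *Clec3b* was nearest to *Gsn* (0.94), which encodes gelsolin, *Ntn1* (0.91) and *Entpd2* (0.88), and *Matn2* to *Mex3b* (0.90), *Sgce* (0.88) and *L1cam* (0.84). The remaining 3 genes had a mean below 50 counts and were not searched.

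The wider cartilage gene list moved in both directions. Of 36 other cartilage genes, 27 passed the filter, and from 1 to 6 dpi 8 of these rose, 3 fell and 16 did not pass the threshold, where 6.91% of all genes were called higher and 5.21% lower. Those that rose were the fibrillar and associated collagens *Col2a1*, *Col11a1*, *Col11a2*, *Col27a1* and *Col9a2*, the proteoglycans *Fmod* and *Prelp*, and *Pth1r*, the receptor for parathyroid hormone. *Fmod* went from 8.36 to 16.2 CPM at 1 dpi to 230 to 312 at 6 dpi (log2 fold change 4.52, SE 0.45, adjusted p = 4.7e-06 by edgeR) and was the one gene of the list called from 4 to 6 dpi (2.6, SE 0.41, adjusted p = 0.008). *Col9a2* went from 0.76 to 3.03 CPM to 19.0 to 32.5 CPM (3.72, SE 0.68), and *Col11a1* from 0.127 to 1.48 CPM to 5.80 to 26.6 CPM (4.14, SE 0.71). *Col11a1* already had 15.4 to 21.4 CPM at 4 dpi, with a log2 fold change of -0.51 (SE 0.60) from 4 to 6 dpi. *Col9a2* had 3.29 to 14.5 CPM at 4 dpi. *Col2a1*, the main fibrillar collagen of cartilage, had no count in any 1 dpi library and 22 to 147 counts at 6 dpi, so that its lowest 6 dpi library was at least 3.74-fold higher than 3 counts in any 1 dpi library. That 6 dpi library, at 1.42 CPM, lay within the earlier range, which reached 1.59 CPM at 2 dpi and 2.4 CPM at 5 dpi. From 4 to 6 dpi *Col2a1* did not pass the threshold (log2 fold change 2.72, SE 1.5, adjusted p = 0.32 by edgeR).

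The genes that fell were *Prg4*, which encodes lubricin (-3.68, SE 0.55), and 2 enzymes of chondroitin sulfate synthesis, *Csgalnact1* (-2.06, SE 0.31) and *Chst11* (-1.33, SE 0.32). *Csgalnact1* went from 23.6 to 30.4 CPM at 1 dpi to 4.94 to 7.62 at 6 dpi, against the direction of *Acan*, whose core protein carries chondroitin sulfate. *Sox9*, the master transcription factor of chondrocytes, had 107 to 132 CPM at 1 dpi and 153 to 189 at 6 dpi and did not pass the threshold (0.56, SE 0.22, adjusted p = 0.098 by edgeR). *Sox5* and *Sox6*, which act with it, had log2 fold changes of 0.07 (SE 0.38) and 0.03 (SE 0.87). The median over the list was 0.26, also with *Col2a1* at its bound, against 0.03 for all genes.

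Paralogues of the 9 genes were the other list. Of 23 listed, 17 passed the filter, and 7 of these rose from 1 to 6 dpi, 1 fell and 9 did not pass the threshold, against the same 6.91% and 5.21% of all genes, with a median log2 fold change of 1.34. Among the thrombospondins, the family of *Comp*, *Thbs4* (3.79, SE 0.40, adjusted p = 7.7e-06 by edgeR), *Thbs3* (1.36, SE 0.24) and *Thbs2* (1.14, SE 0.33) rose, and *Thbs1* fell (-1.25, SE 0.33). Among the relatives of *C1qtnf3*, *C1qtnf6* (2.43, SE 0.35), *C1qtnf2* (2.04, SE 0.35) and *C1qtnf1* (1.34, SE 0.39) rose, *C1qtnf7* and *C1qtnf12* did not pass the threshold (0.27 and 0.63), and neither did *C1qtnf4* (2.26, adjusted p = 0.058 by edgeR). The lectin *Clec11a* rose by 1.97 (SE 0.29), unlike *Clec3b*, although the difference between them was not tested. *Matn1*, the matrilin of cartilage, had no count in any library, and *Matn3* stayed at or below 2.25 CPM. The hyaluronan-binding relative of *Acan*, *Vcan*, which encodes versican, had a log2 fold change of -0.37 (SE 0.23).

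**Figure D4:**
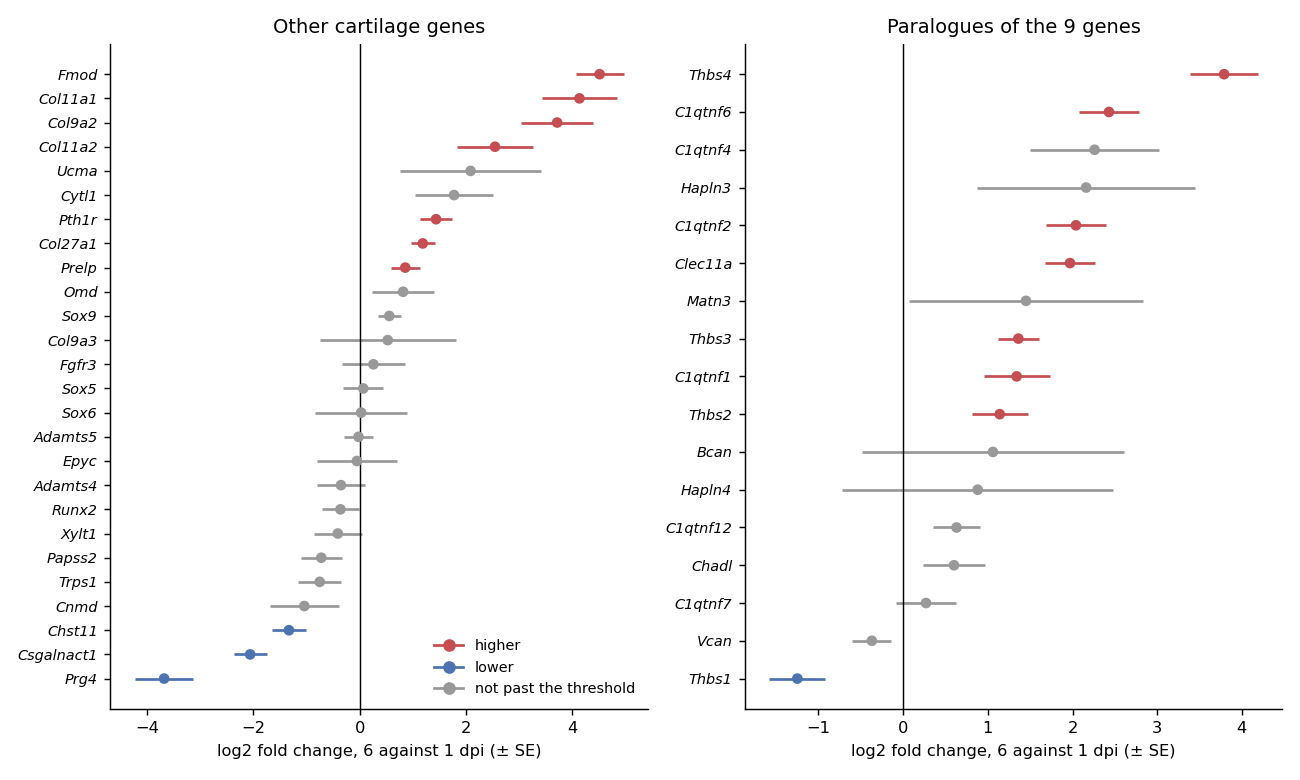
Log2 fold changes (horizontal axis, ± SE) from 1 to 6 dpi of the other cartilage genes and of the paralogues that passed the filter, from edgeR, colored by the call at an adjusted p of 0.05. *Col2a1*, with no count at 1 dpi, is not drawn; *Fmod* (4.52) and *Thbs4* (3.79) have the largest changes drawn in each panel, and *Prg4* (-3.68) and *Thbs1* (-1.25) the lowest.

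Markers of other cell types moved with the late genes in part. The summed level of 7 cardiomyocyte markers was 21.3 to 38.1 CPM at 1 dpi, 43.1 to 72.8 at 4 dpi and 88.0 to 212 at 6 dpi, and that of 6 mural cell markers 41.0 to 76.8, 101 to 158 and 142 to 173 CPM. The 8 epicardial markers summed to 70.5 to 201 CPM at 1 dpi and 74.1 to 603 at 6 dpi, and 7 valve interstitial markers to 1424.3 to 2057.2 and 346 to 511 CPM, of which *Prg4* had 1162.5 to 1910.2 and 47.6 to 178 CPM. Of the other 4 tested genes of that list, *Scx*, a transcription factor of tendon, rose (log2 fold change 3.46, adjusted p = 0.00018 by edgeR), and *Cytl1* (1.78), *Sox9* (0.56) and *Penk* (-1.23) did not pass the threshold. *Scx* already had 20.6 to 57.6 CPM at 4 dpi and 104 CPM at 5 dpi, against 33.9 to 63.6 CPM at 6 dpi. A list of 10 chondrocyte markers, which shares genes with the cartilage list, summed to 6.33 to 21.0 CPM at 1 dpi and 43.2 to 43.9 at 6 dpi. At 3 dpi the sums were 16.6 to 64.0 CPM, so that the highest 3 dpi library lay above every 6 dpi library. *Cnmd*, of this list, reached 57.8 CPM at 3 dpi and did not pass the threshold from 1 to 6 dpi (log2 fold change -1.04, SE 0.65). Of its 7 tested genes, 3 rose (*Col2a1*, *Col9a2* and *Col11a2*) and none fell, while *Matn1* was at 0 in every library and *Snorc* had no count at 6 dpi. The part of these cell types in the levels of the matrix genes was not tested. Of 14 resting fibroblast markers, 13 were tested from 1 to 6 dpi, and 2 rose (*Cd248* and *Mfap5*) and 1 fell (*Pdgfra*, -1.20), beside 6.91% and 5.21% of all genes.

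Promoter sequence is given for the genes highest in every 6 dpi library that have a window in the RefSeq promoter table, to show what precedes the start of genes that were high on the same day. The table (GRCm38.p6) holds 6 of the 9 genes. The 250 bases before the annotated start of *Matn4* (the upstream one of its starts), *C1qtnf3*, *Cilp2* and *Acan* are printed 5′ to 3′ on the strand of the gene, at chr2:164405161-164405410 (minus), chr15:10952082-10952331 (plus), chr8:69887393-69887642 (minus) and chr7:79052976-79053225 (plus). These starts are those of RefSeq and differ from the gene positions given above for *Cilp2* and *Acan*. The *Cilp2* stretch lies inside the gene span given above, and the *Acan* stretch ends short of the gene start given above. Capitals mark matches, on either strand, to the letters searched, namely ACAAT for SOX proteins, CAGAC for SMAD proteins, GGAATG for TEAD proteins, TGANTCA for AP-1 and the TATA sequence TATAAA.
Matn4: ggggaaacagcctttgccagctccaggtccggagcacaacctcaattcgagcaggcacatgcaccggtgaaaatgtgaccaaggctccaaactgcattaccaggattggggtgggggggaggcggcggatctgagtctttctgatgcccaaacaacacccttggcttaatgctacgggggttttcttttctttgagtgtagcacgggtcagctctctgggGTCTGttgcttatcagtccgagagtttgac
C1qtnf3: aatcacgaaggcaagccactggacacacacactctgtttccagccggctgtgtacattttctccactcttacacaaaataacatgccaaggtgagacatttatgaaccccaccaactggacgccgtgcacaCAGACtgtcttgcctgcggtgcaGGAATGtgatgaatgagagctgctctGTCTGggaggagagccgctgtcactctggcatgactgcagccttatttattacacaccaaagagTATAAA
Cilp2: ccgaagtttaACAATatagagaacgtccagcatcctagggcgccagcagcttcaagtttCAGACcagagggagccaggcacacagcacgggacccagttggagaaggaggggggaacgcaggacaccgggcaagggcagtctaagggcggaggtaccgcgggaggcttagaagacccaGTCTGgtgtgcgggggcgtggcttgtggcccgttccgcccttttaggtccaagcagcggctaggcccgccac
Acan: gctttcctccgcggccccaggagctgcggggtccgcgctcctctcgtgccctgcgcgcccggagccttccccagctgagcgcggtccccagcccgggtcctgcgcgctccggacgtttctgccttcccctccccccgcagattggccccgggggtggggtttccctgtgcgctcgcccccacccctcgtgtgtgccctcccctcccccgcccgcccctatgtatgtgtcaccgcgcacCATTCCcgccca

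In windows of 300 bases, which add 50 bases after the start, the SMAD letters were found in those of *Matn4* (1 match, before its first start), *C1qtnf3* (2) and *Cilp2* (2), and in 49.6% of all 32817 windows. The TEAD letters were found once each before *C1qtnf3*, *Acan* and the second annotated start of *Matn4*, whose window is not printed, and in 14.7% of all windows. *Cilp2* held the SOX letters, as did 31.0% of all windows. The TATA letters began 6 bases before the annotated start of *C1qtnf3* and were in 13.6% of all windows, and the AP-1 letters, in 7.81% of all windows, were in none of the 4. No letters searched were shared by the 4 printed windows. The *Acan* window was rich in G and C (74.0%), against a median of 52.7% over all windows. A match describes the letters and not a bound site.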

How the data were processed

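Bulk MARS-seq libraries of sorted CFs were analysed for 17 samples, grouped by day from the labels. The authors aligned the reads to mm10 with STAR and made raw counts per gene with featureCounts, for which the annotation was GRCm38.91 of Ensembl, after demultiplexing with bcl2fastq (1.2.4). The deposited values are counts without normalization. Whether counting used strand or molecular identifiers, and which libraries shared an amplification pool, is not given in the sources used here. The labels do not say whether replicates came from separate animals, so p-values measure the spread between these libraries, which exceeded counting error in each of 18 replicate pairs (chi-square per degree of freedom 21.83 to 212.55). For 5 dpi, the title numbers the library as replicate 3 and the description as 1; the former was taken.

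The filter kept genes that reached 10 counts in 3 or more libraries. The test was quasi-likelihood edgeR (4.0.16, R 4.3.3) on TMM-normalized libraries, and the model held the 6 days as a factor and used all 17 libraries. The Benjamini-Hochberg adjustment ran over all 14030 genes, with a threshold of 0.05. SEs were obtained as the size of the log2 fold change over the root of its F statistic. For log2 CPM a prior count of 2 was added. Positions are from GENCODE vM21 (GRCm38), a release that differs from the authors' annotation, and promoters from RefSeq (GRCm38.p6).

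The 9 genes, the gene lists and the tests were chosen with earlier results of these data known. Genes named are the 9 members, the genes of the cartilage and paralogue lists past the threshold from 1 to 6 dpi, and the 3 genes with the highest Pearson's r to each member with a mean of at least 50 counts. *Sox9*, *Sox5*, *Sox6* and other list genes that did not pass were named after their values were seen. Tested on simulated data of 14030 genes in this design, the comparison of 6 with 1 dpi recovered 67 of 196 altered genes (57.6% at a log2 change of 2 and 10.3% at 1) with 2 false calls. Alternatives were DESeq2 (1.42.0), its size factors, other filters, only the libraries of the days compared, the replicate number as a block, 1 dpi libraries of one sex-linked pattern and each library left out.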

Additional observations from a re-analysis of the deposited data

Results flagged for a closer look

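*Chad* at 3 dpi stood out because 1 library lay apart from the rest. Replicate 3 had 18 counts (1.34 CPM) and the other 3 libraries had 0 counts, where a count of 0 allows up to 0.242 to 0.319 CPM. The gap between the highest library and the nearest other therefore made up the whole range, a ratio of 1.0 that exceeds Dixon's 95% critical value for 4 samples. This day is the only one with 4 libraries. For values without ties, chance alone exceeds the critical value in about 1 of 20 groups, or 0.45 of the 9 genes examined. That rate does not hold for *Chad*, because with 3 libraries at 0 any count in the remaining one gives a ratio of 1.0. *Cilp*, with 88.0 CPM in replicate 2 against 193 to 230 CPM in the others, had a ratio of 0.818 and did not exceed the critical value.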

How the results depend on the processing

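Of 293 values of single genes under an alternative, 261 were called or not called as before with the same sign, 22 passed it only under the alternative, 7 no longer passed it and 3 changed sign, and all 18 level differences between 6 and 1 dpi under other scales moved by less than 1 SD. The changes of sign were those of *Matn2* from 4 to 6 dpi without 4 dpi replicate 3 (0.39) or 6 dpi replicate 2 (0.14) and of *Cilp2* from 3 to 4 dpi without 4 dpi replicate 3 (-0.79), none of them past the threshold before or after. With single libraries left out these differences ranged from -0.26 to 0.39 for *Matn2* and from -0.79 to 0.99 for *Cilp2*. Few counts limit *Acan*, *Cilp2* and *Chad*, whose 1 dpi libraries held as few as 0 counts, so that their changes are known only to within wide intervals.

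The number of the 7 genes called from 1 to 6 dpi was 4. Against the 1 dpi library of the later sex-linked pattern alone, *Matn2* had a log2 fold change of 1.34, where the main fit gave 0.94. *Acan* had no count in that library, which allows up to 0.38 CPM, and at least 7.23 CPM at 6 dpi. It was thus higher at 6 dpi, but the size of the difference is not known. From 4 to 6 dpi the number called was 0, but 3 with DESeq2, 4 with every gene of at least 1 count and 1 when the fit held those days alone. From 3 to 4 dpi the number went from 0 to 2, and from 2 to 3 dpi from 0 to 1, with every gene of at least 1 count. From 1 to 2 dpi it went from 0 to 1 with DESeq2, with every gene of at least 1 count and with a fit of those days alone. With 1 library left out, it ranged from 3 to 4 from 1 to 6 dpi, from 0 to 1 from 4 to 6 dpi and from 0 to 1 from 3 to 4 dpi, and stayed at 0 in the other steps.

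Over the whole table, 1700 genes were called from 1 to 6 dpi, and 597 with the 1 dpi library of the later sex-linked pattern. Called from 4 to 6 dpi were 72 genes, 759 with DESeq2, 882 with every gene of at least 1 count, 140 with at least 10 counts in every library, 14 with a fit of those days alone and 28 when the replicate number entered as a block. From 3 to 4 dpi the number was 380, then 857 with DESeq2, 866 with every gene, 125 with only those days and 243 with the block. The step from 2 to 3 dpi had 412, 1033 with DESeq2, 980 with every gene, 252 with only those days and 174 with the block, and the step from 1 to 2 dpi 25, 104 with DESeq2, 153 with every gene, 10 with the strict filter, 63 with only those days and 13 with the 1 dpi libraries of the later pattern. With 1 library left out the ranges were 763 to 2577 (1 to 6 dpi), 3 to 1402 (4 to 6 dpi), 126 to 722 (3 to 4 dpi), 46 to 734 (2 to 3 dpi) and 13 to 26 (1 to 2 dpi). The highest counts were reached without 6 dpi replicate 3, for both comparisons of that day, and without 3 dpi replicate 2, for both steps of that day. The cause of these differences was not tested. Libraries with the same replicate number did not deviate together on average (mean r 0.011 over 30 pairs, against -0.005 over 72 others). This average shows no pairing by number but cannot exclude shared handling of some libraries. The block changed no count of the 7 genes.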
